A study of Mus musculus with 12 samples.

Results

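The comparison is between CD4+CD8+ (double positive, DP) and CD4-CD8+ (immature single positive, ISP) thymocytes sorted from fetal mouse thymus lobes after anti-CD3. Its members were chosen by label alone: the 4 DP and the 4 ISP libraries, 8 of the 12 RNA-seq libraries of a study of the transcriptional repressor BCL6 in early T cell development. Thymi were from C57BL/6 embryos, which the sample labels place at E16.5 (embryonic day) and the treatment protocol at E17.5, and were cultured on filters for 2 days with 1 µg/ml anti-CD3. All 8 libraries came from Rag1-deficient thymi that carried floxed Bcl6 alleles. The control libraries (Rag1KO Bcl6fl/fl LckCre-) lacked the Cre transgene and the KO libraries (Rag1KO Bcl6fl/fl LckCre+) carried it under the Lck promoter, which is active in thymocytes. Each of the 4 combinations of population and genotype had 2 libraries. The other 4 libraries, CD25+ cells of untreated thymi with the same genotypes, entered no test here. The labels do not say whether libraries were made from separate embryos or pools, so p-values measure the spread between these libraries, which may be technical.

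A thymocyte that has made a T cell receptor β chain displays it with the pre-TCR α chain and CD3, and the signal from this complex carries the cell out of the CD25+ CD4-CD8- stage, through a dividing ISP stage, to the smaller and more quiescent DP stage. In a DP cell the RAG recombinase then rearranges the α chain locus. Without RAG1 no receptor chain can be assembled and cells stop at the CD25+ stage. Anti-CD3 acts on the CD3 that these cells display and moves them on to ISP and DP without a receptor, so the DP cells studied here were never selected by one. BCL6 is a repressor that recruits corepressor complexes and is best known for its work in the germinal centre, in B cells and in the T cells that help them.

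Deposited values are RPKM (reads per kilobase of transcript, scaled to each library's mapped reads), and the reads recovered from them numbered 9658701 to 14229577 per library. The first principal component of the 8 libraries held 79.6% of their variance and placed the 4 ISP libraries at -37.4 to -30.1, the DP control libraries at 43.2 and the DP KO libraries at 24.8 and 28.8. Groups follow the titles, source names and column names, which name the same population and genotype for every library. The sequencing library names in the descriptions disagree with the titles in population for 4 of the 8 libraries and in genotype for 4, and the developmental stage entries disagree in population for 5. The median residual variance was 0.00966 with the titles' groups and 0.0214 with the library names' groups, and with the latter limma called 0 genes in any contrast, with 198 at an unadjusted p under 0.05 for DP against ISP. Title and library name agree on the population in the other 4 libraries, and with these alone 2515 genes were called higher and 2756 lower in DP. Among genes of the sex chromosomes, the X inactivation transcript Xist was at 20.5 to 25.6 RPKM in 6 libraries but at 0.766 RPKM in ISP control 2 and 0.914 RPKM in DP control 2, and the Y-linked Ddx3y was at 0 to 0.0979 RPKM in all 4 KO libraries and at 7.28, 29.7, 0 and 0.0979 RPKM in the ISP and 15.7, 56.3, 0 and 0.0907 RPKM in the DP libraries (control 1, control 2, KO 1, KO 2). Ddx3y thus went with genotype in these 8 libraries, and neither gene separates the populations. In the CD25+ libraries Ddx3y was at 19.8 and 10.8 RPKM in control and 7.61 and 18.7 RPKM in KO. Levels of both genes depend on the sex of the embryos, so sex and genotype cannot be fully told apart in the 8 libraries.

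The genes that the sort selects on differed in the labelled direction. Cd4 (chr6:124864692-124888221 in GRCm38) encodes the coreceptor for MHC class II that ISP cells were sorted to lack. Its level was 17.4 and 18.8 RPKM in the control and 13.9 and 20.5 RPKM in the KO ISP libraries, against 344 and 338 RPKM in the control and 249 and 191 RPKM in the KO DP libraries. No library of one population overlapped the other, the DP mean was 15.9-fold the ISP mean, and this was the largest rise on the log2(RPKM + 1) scale (log2 difference 3.89, SE 0.14, adjusted p = 1.82e-08; 4.17 in control libraries alone). Cd8a (chr6:71373427-71379173) and Cd8b1 encode the chains of the coreceptor for MHC class I, which both populations were sorted to have. Cd8a was at 230.4 to 302 RPKM in ISP and 774 to 873 RPKM in DP libraries (log2 difference 1.68, SE 0.064, adjusted p = 2.41e-08). Cd8b1 was at 520.1 to 715 and 2042 to 2506 RPKM (log2 difference 1.91, SE 0.077, adjusted p = 3.08e-08). Transcripts of both chains were thus 3.20-fold and 3.74-fold as abundant in DP cells, although CD8 was not what separated the populations. Il2ra, which encodes CD25, was at 24.2 to 44.7 RPKM in ISP and 14.5 to 32.95 RPKM in DP libraries, far below the 538 to 603 RPKM of the CD25+ libraries. In a bulk library fewer cells of a type and less RNA per cell cannot be told apart, and this holds for every difference given below.

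**Figure D1:**
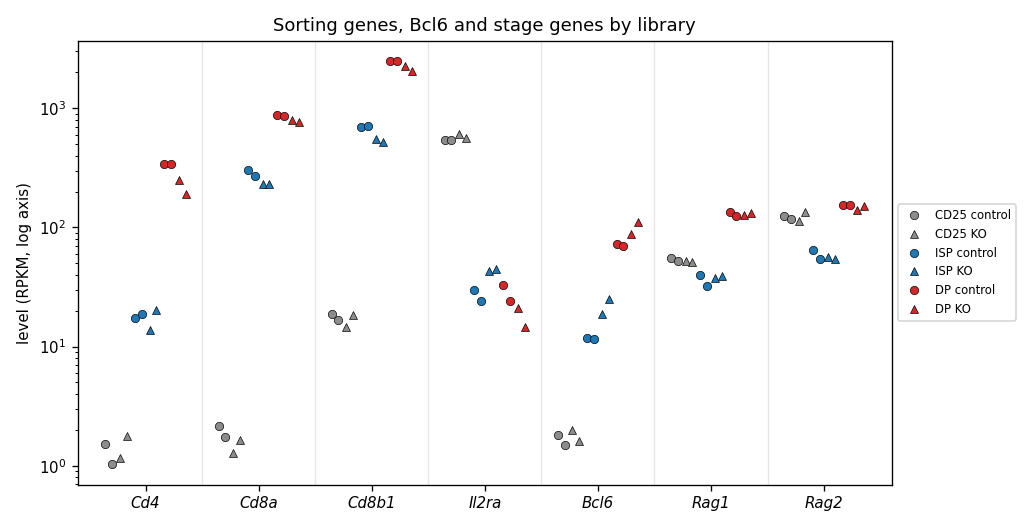
Level of 7 genes in RPKM (log axis) in each of the 12 libraries, with 1 symbol per library, coloured by population (grey CD25+, blue ISP, red DP) and shaped by genotype (circle control, triangle KO). The 4 DP libraries lie above the 4 ISP libraries for every gene plotted except Il2ra, whose ISP and DP ranges overlap.

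Bcl6 itself (chr16:23965052-23988852), the gene that the study targeted, rose from ISP to DP in both genotypes. It was at 11.9 and 11.6 RPKM in the control and 18.9 and 25.1 RPKM in the KO ISP libraries, and at 72.5 and 69.95 RPKM in the control and 87.7 and 111 RPKM in the KO DP libraries (log2 difference 2.32, SE 0.11, adjusted p = 6.04e-08; 2.50 in control libraries alone). Within each population the libraries labelled KO had more Bcl6 reads than the control libraries. A value per gene sums over all exons and the labels do not say which of them the floxed allele loses, so it does not check the deletion; control and KO below name the libraries as labelled. Rag1 (chr2:101638282-101649501) was at 39.9 and 32.04 RPKM in the control and 37.4 and 39.4 RPKM in the KO ISP libraries and at 136 and 124 RPKM in the control and 128 and 133 RPKM in the KO DP libraries (log2 difference 1.79, SE 0.071, adjusted p = 2.97e-08), and the same reserve applies, because these thymi lack a working Rag1 whatever transcript the allele still yields. Rag2, whose product forms the recombinase with RAG1, was at 53.9 to 64.7 RPKM in ISP and 141 to 155 RPKM in DP libraries (log2 difference 1.37, SE 0.062, adjusted p = 5.36e-08).

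Most genes differed between the populations. Of 10896 genes with at least 1 RPKM in 2 or more of the 8 libraries, 3812 were called higher (35%) and 3708 lower (34%) in DP at an adjusted p under 0.05 by limma, with genotype as a covariate. A call alone is therefore common, and lists below are read against these shares. Calls of 2-fold or more on the log2(RPKM + 1) scale numbered 457 higher (4.19%) and 775 lower (7.11%). These counts, and the 2-fold calls of the lists, depend on the scale: 728 were higher with a pseudocount of 0.1, 218 with 5 and 769 with voom on recovered reads, and 383 were lower with a pseudocount of 5. In the control libraries alone, 3501 genes were called higher (32.1%) and 3617 lower (33.2%), together 65.3%, of which 617 (5.66%) and 986 (9.05%) by 2-fold or more. In the KO libraries 56.5% were called, 9.54% by 2-fold or more. Both sets of calls took each gene's spread from all 8 libraries together. All 4 DP values lay above all 4 ISP values for 3277 genes (30.1%) and below them for 3239 (29.7%). The median log2 difference over all genes tested was 0.0196.

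**Figure D2:**
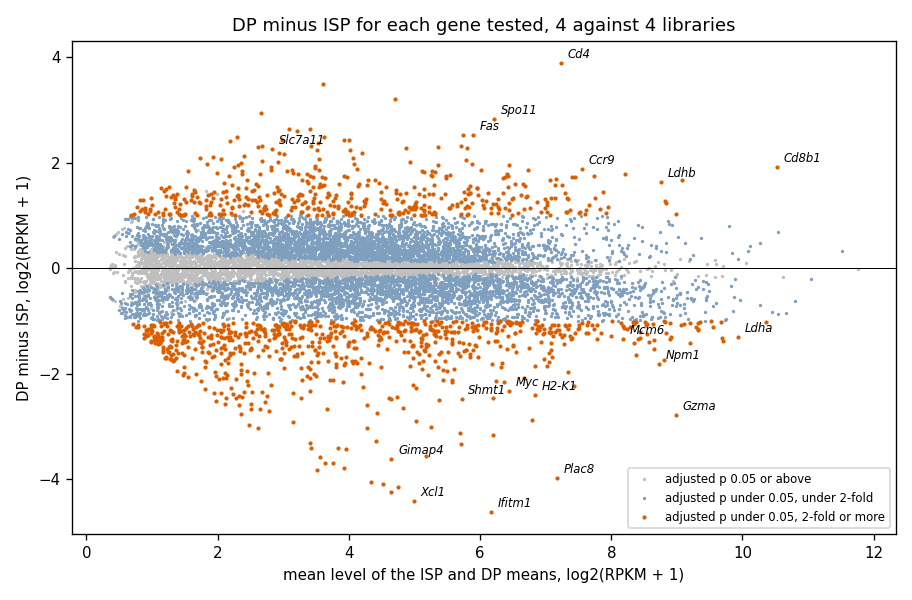
DP minus ISP difference on the log2(RPKM + 1) scale for each of the 10896 genes tested, against the mean level of the gene; each point is 1 gene. Grey points were not called, blue points were called at under 2-fold, and orange points were called at 2-fold or more, 457 above and 775 below 0, with Cd4 highest and Ifitm1 lowest.

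Other large rises were of genes with varied known functions. Slc6a19, a transporter of neutral amino acids, was at 3.72 to 4.29 RPKM in ISP and 35.1 to 57.8 in DP libraries (log2 difference 3.20, SE 0.11, adjusted p = 1.34e-08). Spo11, which encodes the nuclease that cuts DNA in meiosis, was at 18.2 and 17.7 RPKM in the control and 17.3 and 15.1 RPKM in the KO ISP libraries and at 149 and 146 RPKM in the control and 113 and 109 RPKM in the KO DP libraries (log2 difference 2.84, SE 0.068, adjusted p = 5.11e-09). Tdrd5, another gene of germ cells, was at 10.6 to 17.98 RPKM in ISP and 79.3 to 105 RPKM in DP libraries (log2 difference 2.52, SE 0.12, adjusted p = 6.77e-08). Fas, which encodes a death receptor, was at 16.6 and 19.6 RPKM in the control and 14.9 and 15.01 RPKM in the KO ISP libraries and at 114 and 111 RPKM in the control and 92.1 and 82.6 RPKM in the KO DP libraries (log2 difference 2.52, SE 0.065, adjusted p = 5.11e-09). Further large rises were those of Map4k5 (log2 difference 2.95), Xrra1 (2.64), Ankrd6 (2.60), Spats2l (2.50), Plxnd1 (2.49), a semaphorin receptor of thymocytes, and Baiap3 (2.44). No overlap between the populations was part of the rule that chose these genes, so their positive difference in control libraries alone follows from it. That difference was 2.57 for Fas and 3.47 for Slc6a19.

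Known DP genes rose as a group. Of 18 genes of the DP stage, 17 were called higher and 1 lower, 14 of the rises by 2-fold or more, with a median log2 difference of 1.36 (1.43 in control libraries). Cd4, Cd8a and Cd8b1 belong to this list, so part of it was sorted on. Ets2, a transcription factor of the ETS family, was at 108 and 102 RPKM in the control and 87.97 and 88.4 RPKM in the KO ISP libraries, and at 360.4 and 364 RPKM in the control and 301 and 285 RPKM in the KO DP libraries (log2 difference 1.75, SE 0.05, adjusted p = 5.15e-09), with no overlap between the populations in either genotype. The exception was Cd69, which marks recently signalled thymocytes and rises in DP cells that engage their receptor. It was at 9.85 and 11.8 RPKM in the control and 11.8 and 14.1 RPKM in the KO ISP libraries and fell to 7.74 and 6.67 RPKM in the control and 4.95 and 5.65 RPKM in the KO DP libraries (log2 difference -0.83, SE 0.13, adjusted p = 2.27e-04).

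Transcription factors of the T lineage moved in both directions. Of 32 tested, 16 were called higher and 12 lower, with a median of 0.34. Satb1, a chromatin organiser needed for Rag expression in DP cells, was at 247 to 280.1 RPKM in ISP and 559 to 724 RPKM in DP libraries (log2 difference 1.27, SE 0.059, adjusted p = 5.48e-08). Foxo1, which restrains growth and cycling, was at 12.4 to 17.9 and 24.9 to 31.04 RPKM (log2 difference 0.90, SE 0.069, adjusted p = 1.20e-06). Genes of V(D)J recombination and end joining were divided likewise, with 9 of 17 higher and 4 lower. Beside Rag1 and Rag2, Dclre1c, which encodes the Artemis nuclease that opens coding hairpins, was at 5.97, 6.12, 6.30 and 6.26 RPKM in ISP and 18.5, 18.2, 17.3 and 16.8 RPKM in DP libraries (log2 difference 1.38, SE 0.064, adjusted p = 5.45e-08). Lig4, the ligase that seals the joint, was at 16.3 to 21.7 and 28.3 to 38.2 RPKM (log2 difference 0.78, SE 0.059, adjusted p = 1.05e-06). Dclre1c and Lig4 lay below both Rag genes in each of the 8 libraries.

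The letters before 2 genes that rose, Rag1 and Ccr9, are shown because their windows hold E-boxes of the kind bound by E proteins such as E2A and HEB, factors that are known to act on DP genes. The sequences are the 250 bases before the RefSeq start site, on the gene's strand, from the GRCm38.p6 build (chr2:101649533-101649782 on the minus strand for Rag1 and chr9:123766961-123767210 on the plus strand for Ccr9), with CAGCTG and CAGGTG, read on both strands, in capitals.
Rag1: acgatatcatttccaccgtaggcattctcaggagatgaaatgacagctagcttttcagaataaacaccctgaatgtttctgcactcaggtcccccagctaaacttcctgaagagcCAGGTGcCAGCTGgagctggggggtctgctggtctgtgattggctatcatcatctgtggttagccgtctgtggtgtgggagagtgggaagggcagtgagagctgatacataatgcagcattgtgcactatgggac
Ccr9: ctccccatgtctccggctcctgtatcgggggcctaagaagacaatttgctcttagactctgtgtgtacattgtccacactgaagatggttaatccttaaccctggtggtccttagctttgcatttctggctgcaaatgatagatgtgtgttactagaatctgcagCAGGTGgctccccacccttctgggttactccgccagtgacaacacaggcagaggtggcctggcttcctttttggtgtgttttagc
The Rag1 window held both letters side by side, starting at -135 and -128, and the Ccr9 window held CAGGTG at -85. Over windows of 300 bases (250 before to 50 after the start), either of these letters was found in 130 of 334 genes called higher by 2-fold or more that had a window (38.9%), in 157 of 589 called lower by 2-fold or more (26.7%), in 28.2% of the 8246 tested genes with a window and in 32.6% of all 27025 windows. By list it was 5 of 13 windows of DP stage genes (38.5%). In lists that fell it was 5 of 14 for cytotoxic and effector genes (35.7%) and 3 of 9 for natural killer and innate lymphoid markers (33.3%). It was 8 of 61 for cytosolic ribosomal proteins (13.1%), which also fell. A match is a description of the letters only.

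CD3 chains and most of the signalling apparatus downstream of CD3 were higher in DP cells. Of 9 listed genes of the receptor, the CD3 complex and its partners, 6 were measured: Cd247, Trat1, Cd3d, Cd3e, Cd3g and Ptcra. All 6 were called higher, 2 by 2-fold or more, with a median of 0.53, and 5 of them in control libraries alone. The call of Ptcra, the only pre-TCR chain among them, was lost without some single libraries, as given below. Cd247, which encodes the ζ chain, was at 64.5 and 66.5 RPKM in the control and 60.9 and 59.3 RPKM in the KO ISP libraries and at 151 and 147 RPKM in the control and 134 and 122 RPKM in the KO DP libraries (log2 difference 1.12, SE 0.052, adjusted p = 5.40e-08). Trat1, an adaptor that stabilises the receptor, was at 68.7 to 89.3 and 167 to 196 RPKM (log2 difference 1.20, SE 0.069, adjusted p = 2.01e-07). Cd3d was at 448 to 492 RPKM in ISP and 639.9 to 664 RPKM in DP libraries (log2 difference 0.47, SE 0.058, adjusted p = 3.25e-05), a call that was lost when only the 4 libraries with agreeing labels were used (adjusted p = 0.0537).

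Among proximal signalling genes, 23 of 28 were called higher, 7 of them by 2-fold or more, and 2 lower, with a median of 0.77. The members with the smallest p were mostly known as brakes on the receptor signal. Sit1, an inhibitory transmembrane adaptor, was at 92.96, 97.03, 89.5 and 82.7 RPKM in ISP and 228, 227, 235 and 225 RPKM in DP libraries (log2 difference 1.33, SE 0.056, adjusted p = 3.44e-08). Sla, which encodes the adaptor SLAP that promotes breakdown of the receptor in DP cells, was at 135 to 147 and 305 to 321 RPKM (log2 difference 1.13, SE 0.052, adjusted p = 5.36e-08). Dgka, a kinase that removes diacylglycerol, was at 74.7 to 92.6 and 171 to 278 RPKM (log2 difference 1.43, SE 0.072, adjusted p = 8.88e-08). Grap2, which encodes the activating adaptor GADS, was at 16.51 to 18.4 and 36.9 to 39.9 RPKM (log2 difference 1.10, SE 0.055, adjusted p = 8.25e-08). The 2 members that fell were Ptpn6 and Csk, inhibitory signalling enzymes, and Csk lost its call when only the 4 libraries with agreeing labels were used (adjusted p = 0.116). 
Genes of the early response and of MAPK feedback were mixed, 9 of 21 higher and 6 lower. Nfkbia and Tnfaip3, feedback inhibitors of NF-κB, were at 115 to 129 and 12.6 to 14.99 RPKM in ISP and at 249 to 281 and 34.6 to 42.8 RPKM in DP libraries (log2 differences 1.10 and 1.40). Jund, an AP-1 subunit, was at 51.8 to 67.9 and 111 to 120.00 RPKM (log2 difference 0.95, SE 0.082, adjusted p = 2.83e-06).

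Survival and death genes also split. Of 19 genes of the BCL2 family and the death receptors, 8 were called higher and 7 lower. Bcl2l1, which encodes BCL-XL, the main survival protein of DP cells, was at 61.01 and 56.2 RPKM in the control and 53.9 and 58.4 RPKM in the KO ISP libraries and at 157 and 163 RPKM in the control and 142 and 131 RPKM in the KO DP libraries (log2 difference 1.35, SE 0.06, adjusted p = 5.15e-08). Mcl1, another survival gene, was at 75.8 to 82.5 and 159 to 173 RPKM (log2 difference 1.07, SE 0.05, adjusted p = 5.48e-08). Bax, a killer protein of the same family, fell from 168 to 198 to 94.7 to 108 RPKM (log2 difference -0.85, SE 0.047, adjusted p = 1.42e-07). Of 21 known p53 targets, which include Fas and Bax, 11 were called higher and 6 lower, with a median of 0.34. Trp53inp1, a mediator of p53-dependent arrest and autophagy, was at 84.2, 83.5, 75.2 and 71.9 RPKM in ISP and 299, 328, 240.2 and 199 RPKM in DP libraries (log2 difference 1.72, SE 0.083, adjusted p = 6.73e-08), and Sesn1, an inhibitor of mTORC1, at 24.5 to 30.6 and 58.9 to 68.2 RPKM (log2 difference 1.14, SE 0.052, adjusted p = 5.36e-08). 

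Genes that copy DNA fell together. Of 51 E2F factors and replication genes, 49 were called lower, 20 of them by 2-fold or more, and 2 higher (E2f2 and E2f7), with a median of -0.91 (-1.16 in control and -0.71 in KO libraries). Mcm2, Mcm5 and Mcm6 encode subunits of the replicative helicase, and Cdc6 loads it onto origins. Mcm6 was at 400.4 and 429 RPKM in the control and 410.2 and 403 RPKM in the KO ISP libraries, and at 132 and 134 RPKM in the control and 185 and 206 RPKM in the KO DP libraries (log2 difference -1.34, SE 0.11, adjusted p = 1.45e-06). Mcm5 was at 209 and 217 RPKM in the control and 204 and 199 RPKM in the KO ISP libraries, and at 68.5 and 72.97 RPKM in the control and 103 and 108 RPKM in the KO DP libraries (log2 difference -1.25, SE 0.11, adjusted p = 3.47e-06). In each, all 4 DP libraries were low and the DP control libraries were lowest. Mcm2 was at 218 to 225 and 88.7 to 112 RPKM (log2 difference -1.15, SE 0.064, adjusted p = 1.57e-07), and Cdc6 at 41.6 to 45.9 and 12.1 to 19.8 RPKM (log2 difference -1.39, SE 0.12, adjusted p = 2.75e-06). Pold2, a subunit of DNA polymerase δ, was at 50.2 to 55.3 and 15.5 to 20.8 RPKM (log2 difference -1.46, SE 0.082, adjusted p = 1.64e-07).

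The upstream windows of Mcm5, Mcm6 and Cdc6 are shown because they hold the E2F element, the site through which E2F factors switch on replication genes at the start of S phase. The 250 bases before each RefSeq start site are given on the gene's strand in GRCm38.p6 (chr8:75109259-75109508 plus, chr1:128359706-128359955 minus and chr11:98907901-98908150 plus), with TTTCCCGC and TTTGGCGC or their reverse complements in capitals.
Mcm5: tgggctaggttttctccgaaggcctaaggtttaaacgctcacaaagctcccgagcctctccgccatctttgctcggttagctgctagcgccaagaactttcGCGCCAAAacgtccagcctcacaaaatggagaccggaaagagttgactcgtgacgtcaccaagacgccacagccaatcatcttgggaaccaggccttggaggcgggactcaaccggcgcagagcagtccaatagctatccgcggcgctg
Mcm6: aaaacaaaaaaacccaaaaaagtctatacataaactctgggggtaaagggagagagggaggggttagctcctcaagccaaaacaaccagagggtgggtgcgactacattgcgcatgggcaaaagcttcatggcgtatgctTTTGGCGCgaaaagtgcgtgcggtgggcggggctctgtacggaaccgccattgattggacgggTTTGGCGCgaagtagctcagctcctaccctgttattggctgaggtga
Cdc6: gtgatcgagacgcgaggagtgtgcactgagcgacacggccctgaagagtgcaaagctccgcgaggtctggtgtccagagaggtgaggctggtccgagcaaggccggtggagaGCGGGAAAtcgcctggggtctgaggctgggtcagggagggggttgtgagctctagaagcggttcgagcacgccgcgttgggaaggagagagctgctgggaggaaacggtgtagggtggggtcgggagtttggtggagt
The element started at -149 in Mcm5, at -110 and -47 in Mcm6 and at -138 in Cdc6. In the 300-base windows it was found in 14 of the 43 replication genes with a window (32.6%), against 3.44% of the tested genes and 1.63% of all windows. Among genes called lower by 2-fold or more it was found in 20 of 589 (3.4%), and among those called higher in 4 of 334 (1.2%). It was found in 1 of 40 windows of the G2 and mitosis list (2.5%).

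Genes of G2 and mitosis did not follow the replication genes. Of 49 tested, 3 were called higher, 8 lower and 38 neither, with a median of -0.075. The count of 8 was 5 without ISP control 1, ISP control 2, DP control 1 or DP control 2 and 15 without DP KO 2. Beneath it lay different directions in the 2 genotypes: 40 were called lower and 1 higher in control libraries, and 0 lower and 20 higher in KO libraries. Mki67, the proliferation antigen, was at 78.6 and 78.9 RPKM in the control and 75.3 and 70.9 RPKM in the KO ISP libraries, and at 67.6 and 68.3 RPKM in the control and 86.2 and 87.1 RPKM in the KO DP libraries (log2 difference -0.21 in control and 0.24 in KO libraries). Aurkb, a kinase of chromosome segregation, was at 174 and 169 RPKM in the control and 162 and 156 RPKM in the KO ISP libraries, and at 102 and 108 RPKM in the control and 136 and 155 RPKM in the KO DP libraries (log2 difference -0.42, SE 0.11, adjusted p = 0.00451). Cenpf, a kinetochore protein, was at 11.8 to 15.03 and 16.48 to 20.6 RPKM (log2 difference 0.44, SE 0.094, adjusted p = 0.00174). The DP control libraries were the lowest of the 8 for Mki67 and Aurkb, and the DP KO libraries exceeded the ISP range for Mki67.

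Cyclins, their kinases and inhibitors went in both directions. Of 22, 8 were called higher and 10 lower. Cdk4, the kinase that D cyclins activate in G1, was at 569 and 592 RPKM in the control and 564 and 571 RPKM in the KO ISP libraries and at 196 and 194 RPKM in the control and 242 and 272 RPKM in the KO DP libraries (log2 difference -1.35, SE 0.087, adjusted p = 3.91e-07). Ccnd3, the D cyclin that thymocytes require after pre-TCR signalling, rose from 309.97 to 383 to 579 to 627 RPKM (log2 difference 0.84, SE 0.06, adjusted p = 7.47e-07). Ccnd2, another D cyclin, fell from 24.03 to 40.8 to 3.40 to 17.1 RPKM (log2 difference -1.87, SE 0.23, adjusted p = 3.30e-05). The inhibitors Cdkn1c (p57) and Cdkn2d (p19INK4d) were at 14.3 to 24.9 and 109.8 to 134 RPKM in ISP and at 61.9 to 86.8 and 239 to 253 RPKM in DP libraries (log2 differences 1.76 and 1.04).

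Myc, the driver of growth in dividing thymocytes, was high in all 4 ISP libraries and low in all 4 DP libraries. It was at 130.2 and 138 RPKM in the control and 152 and 153 RPKM in the KO ISP libraries, and at 20.9 and 18.8 RPKM in the control and 35.5 and 41.6 RPKM in the KO DP libraries (log2 difference -2.33, SE 0.13, adjusted p = 1.57e-07; -2.70 in control libraries). Mxd4, a partner of MAX that opposes MYC, moved the other way, from 21.8, 20.1, 21.5 and 18.1 RPKM to 56.8, 56.1, 56.8 and 52.9 RPKM (log2 difference 1.41, SE 0.064, adjusted p = 5.36e-08). In the Myc network as a whole 4 of 11 were called higher and 2 lower. The lower call besides Myc was Mycn (log2 difference -0.26), which was lost without any 1 of 6 libraries (ISP control 1, ISP KO 1, ISP KO 2, DP control 1, DP control 2 or DP KO 1).

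Genes of ribosome biogenesis fell with 1 exception. Of 36 genes of ribosome biogenesis, 35 were called lower, 34 of them by 2-fold or more, and 1 (Wdr12) higher, with a median of -1.39 (-1.51 in control libraries). Npm1, a nucleolar chaperone, was at 599 and 688 RPKM in the control and 656 and 693 RPKM in the KO ISP libraries, and at 157 and 165 RPKM in the control and 209 and 221 RPKM in the KO DP libraries (log2 difference -1.82, SE 0.082, adjusted p = 5.36e-08). Mybbp1a, a nucleolar regulator of ribosomal DNA transcription, was at 69.00 to 85.3 and 14.3 to 18.9 RPKM (log2 difference -2.15, SE 0.054, adjusted p = 5.11e-09). Ncl, which encodes nucleolin, was at 173 to 194 and 73.3 to 86.5 RPKM (log2 difference -1.22, SE 0.056, adjusted p = 5.36e-08). Nop2, a methyltransferase of ribosomal RNA, was at 55.1, 60.3, 60.02 and 66.7 RPKM in ISP and 14.4, 14.3, 19.2 and 21.7 RPKM in DP libraries (log2 difference -1.76, SE 0.082, adjusted p = 5.45e-08). Its upstream window is shown because it holds CACGTG, the E-box bound by MYC, at -60 (GRCm38.p6, chr6:125131633-125131882, plus strand, element in capitals).
Nop2: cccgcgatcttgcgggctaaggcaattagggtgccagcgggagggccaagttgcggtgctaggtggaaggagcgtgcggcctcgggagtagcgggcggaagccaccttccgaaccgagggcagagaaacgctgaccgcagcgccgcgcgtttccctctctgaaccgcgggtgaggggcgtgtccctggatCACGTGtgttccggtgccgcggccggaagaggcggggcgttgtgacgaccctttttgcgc
CACGTG was found in 7 of the 31 windows of this list (22.6%), in 94 of 589 windows of genes called lower by 2-fold or more (16%), in 29 of 334 of those called higher (8.68%) and in 10.8% of the tested genes' windows. In other lists that fell it was found in 6 of 43 windows of replication genes (14%) and 5 of 61 of cytosolic ribosomal proteins (8.2%). For amino acid transport and serine synthesis it was 1 of 16 (6.25%).

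Ribosomal proteins themselves fell too. Of 82 cytosolic ribosomal protein genes, 79 were called lower, 38 by 2-fold or more, and 0 higher, with a median of -0.98. Their summed level was 38967 to 43266 RPKM in ISP and 19216 to 23413 RPKM in DP libraries, so no library of one population reached the other. Rps2 was at 573 to 617 and 175 to 239.5 RPKM (log2 difference -1.54, SE 0.086, adjusted p = 1.64e-07). Ribosomal protein genes have many near-identical pseudogene copies, between which reads may be divided. Of 76 mitochondrial ribosomal proteins, 68 were called lower and 0 higher (median -0.51), with Mrps18b at 43.99 to 52.5 and 13.6 to 21.1 RPKM. Of 81 subunits of oxidative phosphorylation, 70 were called lower and 3 higher (median -0.47), with Atp5g1, a rotor subunit of the ATP synthase, at 187 to 204 and 59.3 to 88.7 RPKM (log2 difference -1.42, SE 0.088, adjusted p = 2.89e-07).

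Metabolic supply lines fell with them, with single exceptions that rose strongly. Of 20 genes of amino acid transport and serine synthesis, 17 were called lower, 11 by 2-fold or more, and 3 higher, with a median of -1.29. Shmt1 and Mthfd1 carry one-carbon units for nucleotide synthesis. Shmt1 was at 84.7 and 88.4 RPKM in the control and 87.3 and 91.7 RPKM in the KO ISP libraries, and at 11.7 and 11.1 RPKM in the control and 19.5 and 19.4 RPKM in the KO DP libraries (log2 difference -2.48, SE 0.12, adjusted p = 5.48e-08). Mthfd1 was at 74.4 to 77.5 and 12.9 to 22.2 RPKM (log2 difference -2.13, SE 0.1, adjusted p = 7.65e-08), and Slc7a5, the leucine transporter, at 45.1 to 61.2 and 10.3 to 16.3 RPKM (log2 difference -1.91, SE 0.079, adjusted p = 3.19e-08). Slc7a11, which imports cystine for glutathione, went from 1.55, 1.16, 1.45 and 1.73 RPKM in ISP to 10.5, 10.1, 11.9 and 10.6 RPKM in DP libraries (log2 difference 2.26, SE 0.092, adjusted p = 3.19e-08), with no overlap in either genotype.

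In glucose use, 15 of 22 genes were called lower and 3 higher, with a median of -0.65. The subunits of lactate dehydrogenase changed places. Ldha, the subunit that favours lactate formation, was at 1318 and 1504 RPKM in the control and 1384 and 1332 RPKM in the KO ISP libraries and at 529 and 527 RPKM in the control and 579.98 and 609.8 RPKM in the KO DP libraries (log2 difference -1.30, SE 0.077, adjusted p = 2.21e-07). Ldhb, the subunit that favours pyruvate, was at 225 and 188 RPKM in the control and 206 and 227 RPKM in the KO ISP libraries and at 658 and 669.98 RPKM in the control and 641 and 642 RPKM in the KO DP libraries (log2 difference 1.63, SE 0.071, adjusted p = 4.61e-08). Ldha was thus the more abundant per length in every ISP library and Ldhb in every DP library. Hk2, a hexokinase, fell from 3.82 to 5.04 to 0.515 to 0.72 RPKM (log2 difference -1.75, SE 0.11, adjusted p = 2.89e-07). Of 28 genes of cholesterol and lipid synthesis, 20 were called lower and 3 higher (median -0.53). Fasn, the fatty acid synthase, was at 26.7 to 33.7 and 10.1 to 14.3 RPKM (log2 difference -1.30, SE 0.065, adjusted p = 8.25e-08), and Abcg1, which exports cholesterol, at 8.42 to 9.99 and 19.3 to 21.8 RPKM (log2 difference 1.06, SE 0.071, adjusted p = 5.08e-07).

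**Figure D3:**
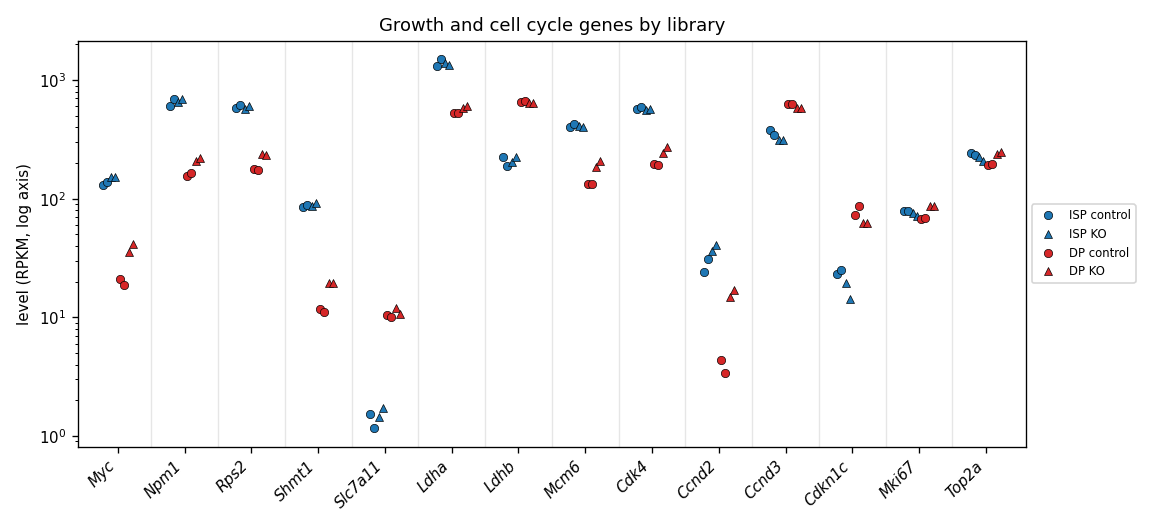
Level of 14 genes of growth, metabolism and cell cycle in RPKM (log axis) in each of the 8 libraries after anti-CD3, with 1 symbol per library (blue ISP, red DP; circle control, triangle KO). Myc, Npm1, Rps2, Shmt1, Ldha, Mcm6, Cdk4 and Ccnd2 are lower and Slc7a11, Ldhb, Ccnd3 and Cdkn1c higher in all 4 DP libraries, while Mki67 and Top2a overlap.

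Most genes of effector lymphocytes fell. Of 17 cytotoxic and effector genes, 15 were called lower, 12 by 2-fold or more, and 0 higher, with a median of -2.32. Gzma, a granzyme, was among the most abundant of them at 820.1 and 938 RPKM in the control and 850.4 and 910.00 RPKM in the KO ISP libraries, and at 103 and 93.2 RPKM in the control and 146 and 187 RPKM in the KO DP libraries (log2 difference -2.78, SE 0.14, adjusted p = 9.45e-08). Gzmb and Gzmc, related proteases, were at 23.9 to 55.00 and 37.04 to 57.5 RPKM in ISP and 0.149 to 2.92 and 0.113 to 3.05 RPKM in DP libraries (log2 differences -4.06 and -4.25). Xcl1, a chemokine of killer cells, was at 44.2 and 58.9 RPKM in the control and 74.99 and 58.7 RPKM in the KO ISP libraries, and at 2.46 and 4.08 RPKM in the control and 2.41 and 0 RPKM in the KO DP libraries (log2 difference -4.41, SE 0.39, adjusted p = 3.23e-06). Nkg7, a granule protein, was at 110.2 to 156 and 11.8 to 14.6 RPKM (log2 difference -3.17, SE 0.11, adjusted p = 1.47e-08). Ctsw, a cathepsin of killer cells, was at 32.6 to 55.4 and 5.46 to 8.37 RPKM (log2 difference -2.48, SE 0.14, adjusted p = 1.81e-07). Pdcd1, which encodes the inhibitory receptor PD-1, was at 14.7 to 18.8 and 2.12 to 3.08 RPKM (log2 difference -2.32, SE 0.087, adjusted p = 2.25e-08). 

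The fall of these genes went with markers of natural killer and innate lymphoid cells. Of the 15 such markers 11 passed the filter, and all 11 were called lower. A gene under 1 RPKM in all DP libraries could pass the filter only through ISP libraries, which favours a lower call. This holds for any list with such genes, among them the effector list above and the γδ list below. The summed level of the list was 221 to 346 RPKM in ISP, 62.05 to 85.96 in DP and 144 to 161 in CD25+ libraries. Ncr1, which encodes the killer cell receptor NKp46, was at 6.50 and 9.32 RPKM in the control and 10.3 and 9.47 RPKM in the KO ISP libraries and at 0.844 and 0.224 RPKM in the control and 0 and 0.0719 RPKM in the KO DP libraries (log2 difference -2.97, SE 0.2, adjusted p = 4.81e-07). Klrd1 and Klra5, killer lectin-like receptors, were at 15.97 to 29.6 and 16.8 to 24.6 RPKM in ISP and at 0.243 to 1.23 and 0 to 1.07 RPKM in DP libraries (log2 differences -3.69 and -3.83). Tyrobp, the signalling adaptor of such receptors, was at 73.4 to 105 and 5.06 to 15.98 RPKM (log2 difference -3.12, SE 0.22, adjusted p = 6.19e-07). Of the list, 10 of 15 were under 1 RPKM in all DP libraries and Klra1 was at 0 in all 8. Most of the DP sum came from Id2, at 53.9 to 88.7 RPKM in ISP and 47.6 to 57.8 RPKM in DP libraries. Gzma alone exceeded the summed level of these markers in each ISP and each DP library. Of 11 listed markers of γδ T cells, 5 were in the table. Without RAG1 no γδ receptor can be assembled, so they are not read as a sign of such cells. They summed to 53.03 to 73.01 RPKM in ISP and 7.09 to 8.37 RPKM in DP libraries, with 4 of 5 called lower. Most of the ISP sum came from Cd163l1, a scavenger receptor known from γδ cells (36.5 to 50.8 against 1.19 to 2.10 RPKM, log2 difference -4.10, SE 0.13, adjusted p = 9.90e-09). Cd163l1 was at 15.0 to 23.5 RPKM in the CD25+ libraries. In DP libraries Il17rb, an interleukin receptor chain, was above Cd163l1 (3.42 to 5.30 RPKM). Markers of mast cells summed to 13.7 to 35.8 and 1.54 to 3.92 RPKM, 2 of 2 tested called lower and 6 of 11 at 0 in all DP libraries. In the ISP libraries, too, 7 of 11 were under 1 RPKM throughout. The 2 tested were Cpa3 and Kit, and Kit is also in the list of the CD25+ stage. Cpa3, a protease of mast cells, was at 10.01 and 12.6 RPKM in the control and 22.1 and 28.6 RPKM in the KO ISP libraries and at 1.11 and 0.789 RPKM in the control and 1.72 and 0 RPKM in the KO DP libraries. It was at 23.4 to 28.9 RPKM in the sorted CD25+ libraries. The part of other cells in the falls was not tested.

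Large falls were also seen in genes outside these lists. Ifitm1, an interferon-induced transmembrane protein, had the largest fall on the log2(RPKM + 1) scale, from 97.1 and 135 RPKM in the control and 156 and 160.1 RPKM in the KO ISP libraries to 2.60 and 5.07 RPKM in the control and 9.55 and 3.00 RPKM in the KO DP libraries (log2 difference -4.62, SE 0.26, adjusted p = 1.76e-07; -4.63 in control libraries). Ifitm2 was at 68.4 to 115 and 5.09 to 12.2 RPKM (log2 difference -3.34, SE 0.13, adjusted p = 2.37e-08), and Ifitm3 at 35.99 to 92.8 and 10.5 to 30.2 RPKM (log2 difference -1.62, SE 0.09, adjusted p = 1.55e-07). These genes lie side by side and are similar in sequence, so reads may be divided between them. The wider set of interferon-stimulated genes did not move as a block: 17 of 37 were called lower and 5 higher, and Igtp, an interferon-induced GTPase, rose from 48.5 to 67.7 to 82.5 to 110.00 RPKM (log2 difference 0.73, SE 0.063, adjusted p = 2.81e-06). Plac8, a cysteine-rich protein of leukocytes, was at 162 and 191 RPKM in the control and 350.03 and 375 RPKM in the KO ISP libraries, and at 12.01 and 7.76 RPKM in the control and 23.8 and 22.7 RPKM in the KO DP libraries (log2 difference -3.98, SE 0.11, adjusted p = 5.15e-09). Cd7, an immunoglobulin family receptor of early T and killer cells, was at 41.7 to 58.7 and 0.506 to 2.83 RPKM (log2 difference -4.15, SE 0.25, adjusted p = 2.44e-07). Igfbp4, which binds insulin-like growth factors, was at 17.3 to 38.6 and 0.69 to 1.43 RPKM (log2 difference -3.79, SE 0.19, adjusted p = 7.57e-08).

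DP thymocytes are known to display little MHC class I, and most genes of its list fell. Of 21 genes of MHC class I and antigen processing, 15 were called lower and 4 higher, with a median of -0.62. H2-K1 was at 159.8 and 168 RPKM in the control and 231 and 212 RPKM in the KO ISP libraries, and at 36.9 and 32.03 RPKM in the control and 36.4 and 34.5 RPKM in the KO DP libraries (log2 difference -2.41, SE 0.084, adjusted p = 1.41e-08). The rises include class I genes, H2-T23 (log2 difference 0.58) and H2-T24 (0.78), which were at 75.8 to 86.04 and 2.20 to 3.11 RPKM in ISP and 107 to 129 and 4.34 to 5.88 RPKM in DP libraries. Psme2, a subunit of the proteasome activator, was at 206 to 264 and 72.4 to 130.5 RPKM (log2 difference -1.29, SE 0.087, adjusted p = 4.94e-07). In the Ly6 family, surface proteins that mark immature and activated lymphocytes, 4 of 7 were called lower and 1 higher. Ly6a, which encodes Sca-1, was at 26.9 to 54.8 and 2.61 to 6.71 RPKM (log2 difference -2.75, SE 0.13, adjusted p = 6.04e-08), and Ly6c2 at 9.12 to 21.5 and 0.119 to 1.97 RPKM (log2 difference -2.91, SE 0.15, adjusted p = 8.54e-08). H2-K1 and Ly6a were higher still in the CD25+ libraries, at 326 to 504 and 144 to 227 RPKM.

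Receptors that place cells in the thymus changed in opposite directions. Of 23 chemokine receptors, integrins and egress genes, 13 were called lower, 11 by 2-fold or more, and 7 higher, with a median of -0.99. Ccr9, the receptor for the thymic chemokine CCL25, was at 82.3 and 108 RPKM in the control and 62.98 and 61.8 RPKM in the KO ISP libraries, and at 348 and 369.6 RPKM in the control and 258 and 197 RPKM in the KO DP libraries (log2 difference 1.87, SE 0.099, adjusted p = 1.10e-07). Cxcr6 and Ccr8, receptors of effector and innate lymphocytes, were at 16.3 to 33.2 and 7.92 to 11.9 RPKM in ISP and 0.333 to 1.41 and 0.0822 to 0.85 RPKM in DP libraries (log2 differences -3.70 and -3.04). S1pr1, which leads mature T cells out of the thymus, was at 5.03, 6.85, 5.18 and 6.25 RPKM in ISP and 0.188, 0.865, 0.541 and 0.972 RPKM in DP libraries (log2 difference -2.08, SE 0.17, adjusted p = 1.75e-06). The DP libraries hold fewer than 1 RPKM of it in all 4 cases. Of this list, 23 members had a mean of at least 1 RPKM in ISP and 17 in DP libraries. Members under 1 RPKM in all DP libraries, such as Ccr8 and S1pr1, could pass the filter only through ISP libraries, which favours a lower call.

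Cytokine receptors and their signalling genes were nearly evenly split, 17 of 35 higher and 12 lower. A mean of at least 1 RPKM was reached by 35 of the list in ISP and 29 in DP libraries, so the filter may favour lower calls here too. Il2rb, the β chain shared by the receptors for interleukins 2 and 15, was at 14.3 and 21.6 RPKM in the control and 24.2 and 22.6 RPKM in the KO ISP libraries, and at 0.81 and 1.18 RPKM in the control and 1.18 and 0.156 RPKM in the KO DP libraries (log2 difference -3.58, SE 0.22, adjusted p = 2.70e-07). Il7r, the receptor on which immature thymocytes depend and which DP cells are known to lose, was at 7.27 and 9.16 RPKM in the control and 12.1 and 15.6 RPKM in the KO ISP libraries, and at 0.71 and 1.07 RPKM in the control and 0.94 and 0.459 RPKM in the KO DP libraries (log2 difference -2.71, SE 0.19, adjusted p = 6.02e-07). Il12rb2 was at 14.5 to 15.8 and 2.56 to 4.13 RPKM (log2 difference -1.87, SE 0.097, adjusted p = 9.83e-08). In the other direction, Il21r was at 39.8 to 47.1 and 92.3 to 119 RPKM (log2 difference 1.31, SE 0.061, adjusted p = 5.40e-08), and Socs1, which silences cytokine signals in DP cells, at 71.4 to 88.2 and 163 to 183 RPKM (log2 difference 1.15, SE 0.064, adjusted p = 1.55e-07). Among 26 costimulatory and adhesion receptors, 11 were called higher and 9 lower. Slamf1 rose from 4.85 to 7.52 to 18.3 to 26.2 RPKM (log2 difference 1.74, SE 0.13, adjusted p = 1.31e-06) and Cd27 from 174 to 195 to 267 to 337 RPKM (log2 difference 0.73, SE 0.054, adjusted p = 9.60e-07), while Ctla4 fell from 19.2 to 30.00 to 4.87 to 6.34 RPKM (log2 difference -1.83, SE 0.13, adjusted p = 6.53e-07).

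Genes of the preceding stage differed in both directions. The list summed to 2765 to 2932 RPKM in CD25+ libraries, and the sums of the ISP libraries (385 to 489.7 RPKM) and DP libraries (399 to 513 RPKM) overlapped. Of 14 genes of the CD25+ stage that passed the filter, 10 were called lower and 3 higher, with a median of -0.59. The 3 were Dtx1, a Notch target (log2 difference 0.65), the receptor Notch3 (0.42) and Ptcra, the pre-TCR α chain (0.29), at 211 to 268 and 242 to 322 RPKM. The call of Ptcra was lost without any 1 of ISP control 2, ISP KO 1, ISP KO 2, DP control 1 or DP KO 1 (adjusted p = 0.0508 to 0.0859). Notch genes were divided, 7 of 16 higher and 5 lower. Hes1, a direct Notch target, was at 23.5 to 27.1 RPKM in ISP and 3.89 to 8.98 RPKM in DP libraries, after 146 to 212 RPKM at the CD25+ stage (log2 difference -1.76, SE 0.15, adjusted p = 2.04e-06). Lfng, which sugars the Notch receptor and sets its sensitivity to ligands, was at 5.75 to 9.24 and 0.414 to 0.982 RPKM (log2 difference -2.35, SE 0.15, adjusted p = 3.97e-07). Notch1 itself was at 43.3 to 55.6 and 41.7 to 48.3 RPKM, which did not pass the test (log2 difference -0.17, SE 0.08, adjusted p = 0.0806) but did without ISP control 2 (adjusted p = 0.00821) or DP control 1 (adjusted p = 0.0406). Il2ra differed with log2 difference -0.60, SE 0.24, adjusted p = 0.0463 over both genotypes. That call rests on single libraries: without any 1 of ISP control 1, ISP KO 1, ISP KO 2, DP control 2, DP KO 1 or DP KO 2 the adjusted p was 0.0537 to 0.138.

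The remaining lists are given by their counts. Of 15 sialyl and core glycosyltransferases, 8 were called lower and 3 higher, with St6galnac4 at 10.1 to 14.6 and 3.63 to 4.19 RPKM (log2 difference -1.48, SE 0.1, adjusted p = 7.11e-07). Of 15 tested genes among BCL6 and its corepressors, 5 were called higher and 5 lower, the lower count falling to 3 without ISP KO 2. Beside Bcl6, Zbtb20, a related repressor, was at 1.39 to 2.11 and 3.94 to 8.07 RPKM (log2 difference 1.32, SE 0.12, adjusted p = 4.04e-06) and Hdac7, a histone deacetylase abundant in DP cells, at 52.00 to 63.7 and 98.9 to 126 RPKM (log2 difference 0.94, SE 0.089, adjusted p = 5.13e-06). Of 28 genes of DNA methylation and Polycomb, 11 were called higher and 12 lower, with Mtf2, a Polycomb cofactor, at 128 to 141 and 64.6 to 72.2 RPKM (log2 difference -0.95, SE 0.055, adjusted p = 1.90e-07). Long nuclear RNAs, whose share of a library is known to depend on how much cytoplasmic RNA it holds, rose: 3 of 4 were called higher and their sum was 68.3 to 93.1 RPKM in ISP and 162 to 284 RPKM in DP libraries, mostly Malat1 (42.3 to 78.2 against 129 to 248 RPKM). They move with the falls of abundant cytoplasmic transcripts such as ribosomal proteins, and their part in those falls was not tested. Among markers of the other cell types, Cd79b, a B cell receptor subunit, rose from 22.01 to 26.3 to 46.1 to 59.9 RPKM and Pecam1, an endothelial adhesion molecule, from 22.1 to 26.4 to 32.8 to 44.2 RPKM. In the sorted CD25+ libraries Cd79b was higher than in either, at 61.4 to 66.7 RPKM. By list, the calls were 2 of 2 B lineage markers higher (8 of 10 were under 1 RPKM in all 4 DP libraries, Pax5 and Ms4a1 at 0), 4 of 12 myeloid markers higher and 2 lower (2 higher without ISP KO 1 or ISP KO 2), 1 of 2 erythroid lower, 2 of 4 thymic epithelial higher, 1 of 1 mesenchymal lower and 1 of 2 endothelial higher.

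**Figure D4:**
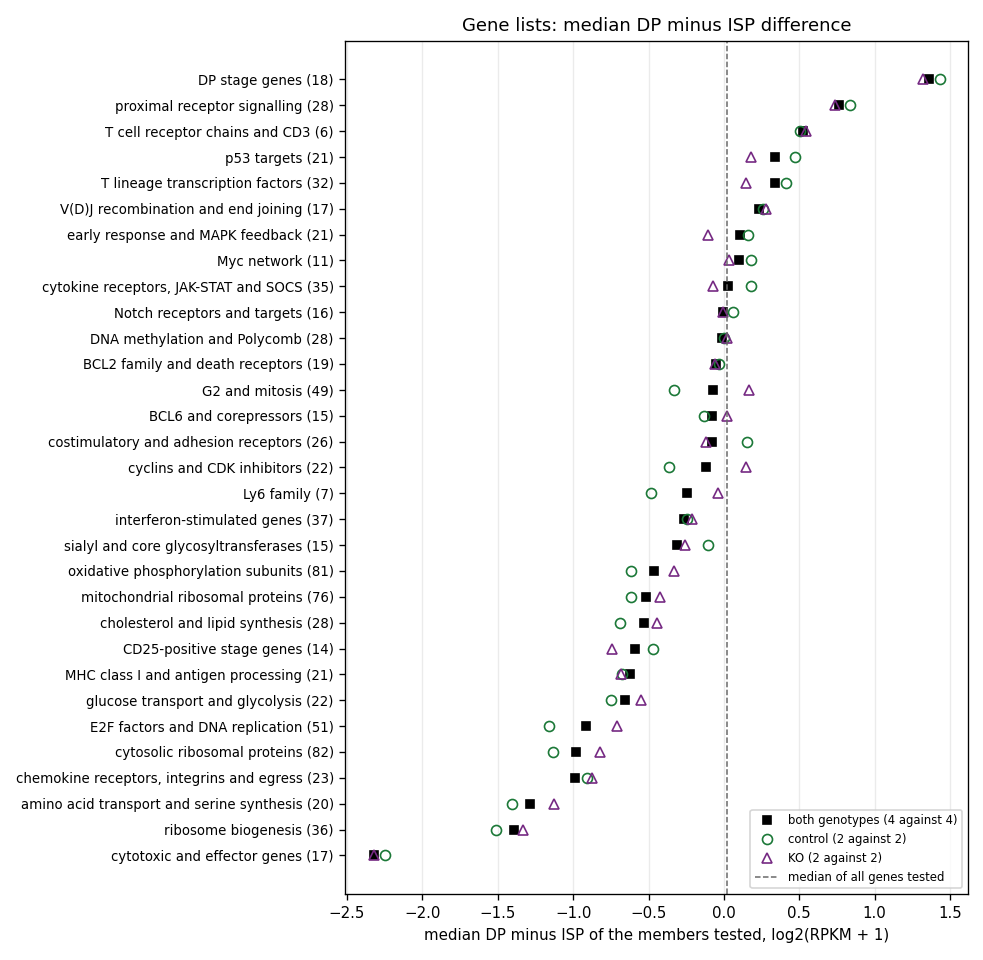
Median DP minus ISP difference on the log2(RPKM + 1) scale for the 31 pathway lists, with the number of genes tested in brackets; squares take both genotypes together, circles the control and triangles the KO libraries, and the dashed line is the median of all genes tested (0.0196). DP stage genes lie highest at 1.36 and cytotoxic and effector genes lowest at -2.32.

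The step from ISP to DP was made by control and KO cells in much the same genes but not always to the same extent. These 2 contrasts compare no library in common. They come from the same fit, however, so both sets of calls rest on the same estimate of each gene's spread and are not independent. Of 617 genes called 2-fold or more higher in control and 381 in KO libraries (3.5% of those tested), 322 were so in both, which is 52.2% of the control and 84.5% of the KO calls. Of 986 and 658 (6.04%) called 2-fold or more lower, 553 were so in both (56.1% and 84%). Across the genes tested the control and KO differences had a Pearson correlation of 0.903, as a description, since genes are not independent. Of 1603 control calls of 2-fold or more, 1586 had the same sign in KO libraries, and the KO difference was the smaller in 1351, with a median of 78.7% of the control difference. Of the 1039 KO calls of 2-fold or more, 624 likewise had the smaller difference in KO.

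The difference between the genotypes' steps was called for 381 genes in the higher direction (DP minus ISP higher in KO, 3.5%) and 47 in the lower (0.431%), together 3.93%, by limma's interaction term. Differences of 2-fold or more made up 0.312%. Of the 381, 375 had a negative difference in control libraries and 353 were called lower there; the control difference enters the term with the opposite sign, so the selection favours this. Of the 51 replication genes 32 and of the 49 G2 and mitosis genes 34 were among them, and 0 of either list was called lower. The number of calls was unstable: it was 24 without ISP control 1, 3 without ISP control 2, 85 without ISP KO 1, 2 without ISP KO 2, 32 without DP control 1, 8 without DP control 2, 1217 without DP KO 1 and 178 without DP KO 2. With no filter on low values it was 18, and 2339 genes had an unadjusted p under 0.05. In 42 genes both steps were called in opposite directions, 38 of them lower in control and higher in KO libraries, among them Mki67, Top2a, Birc5 and Ccna2, which are genes of dividing cells and were named after their values were seen.

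Among named genes with called differences of the step, Pdlim4, a cytoskeletal adaptor, was at 116 and 105 RPKM in the control and 181 and 154 RPKM in the KO ISP libraries, and at 20.9 and 20.9 RPKM in the control and 130.4 and 186 RPKM in the KO DP libraries, with a log2 difference of -2.35 in control and -0.11 in KO libraries (step in KO minus step in control 2.24, SE 0.2, adjusted p = 0.00217). The DP KO libraries alone stayed within or above the ISP range. Ccnd2 was at 4.39, 3.40, 14.99 and 17.1 RPKM in the DP libraries and fell less in KO (1.33, adjusted p = 0.0141). Tyrobp was at 6.38, 5.06, 14.9 and 15.98 RPKM there (1.22, adjusted p = 0.0162), and Myc at 20.9, 18.8, 35.5 and 41.6 RPKM (0.74, adjusted p = 0.0155). In each of these 3 the DP KO libraries were above the DP control libraries and below every ISP library. The 6 largest higher steps by the rule for named genes also include Fam212a (1.35), Bcl2l14, a BCL2 family member (1.27), and the histone gene Hist1h3e (1.17), with adjusted p = 0.0241, 0.0312 and 0.0273. Among genes whose step was lower in KO, Il2ra was at 29.9 and 24.2 RPKM in the control and 43.3 and 44.7 RPKM in the KO ISP libraries, and at 32.95 and 24.3 RPKM in the control and 21.1 and 14.5 RPKM in the KO DP libraries (-1.35, adjusted p = 0.0191). Tnfrsf9, which encodes the costimulatory receptor 4-1BB, fell from 4.41, 4.79, 8.65 and 11.3 RPKM to 0.642, 0.59, 0.311 and 0.189 RPKM (-1.33, adjusted p = 0.0162). Arap2 and Lrig1, the latter an inhibitor of growth factor receptors, rose in control libraries by 1.92 and 2.15 on the log2 scale and in KO libraries by 0.66 and 1.01 (adjusted p of the difference 0.0162 and 0.0446). Akr1c12 (-1.19, adjusted p = 0.0217) and Ankrd23 (-0.96, adjusted p = 0.019) complete the 6 largest lower steps by that rule. Cd4 differed by -0.55 between the steps, which did not pass (adjusted p = 0.185).

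**Figure D5:**
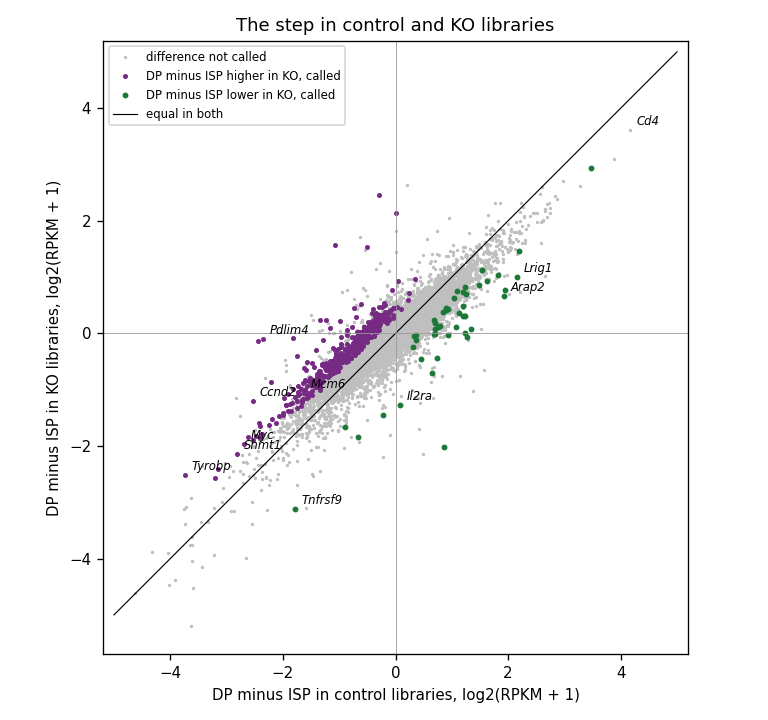
DP minus ISP difference in control libraries (horizontal) against that in KO libraries (vertical), both on the log2(RPKM + 1) scale, with 1 point per gene and the line of equal differences. Purple points (381) lie above the line and were called for a higher difference in KO, green points (47) lie below it, and most purple points are genes with a negative difference in control libraries.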

How the data were processed

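RNA-seq libraries of sorted thymocytes were sequenced by the authors, aligned with BWA to GRCm38 per the submitters' processing notes, and deposited as RPKM per gene; the counting tool is not given in the sources used here. Each gene's RPKM values are whole multiples of what 1 read is worth, and of 169595 values above 0, 100% gave whole reads (tolerance 0.02); the 8 libraries used held 9658701 to 14229577 recovered reads. Differences were tested on log2(RPKM + 1), with a pseudocount of 1, for 10896 genes at 1 RPKM or more in at least 2 of 8 libraries, with limma 3.58.1 in R 4.3.3 (intensity trend, Benjamini-Hochberg adjustment, calls at an adjusted p under 0.05). The DP-ISP fit had genotype as covariate (5 residual degrees of freedom). A fit of 4 groups gave the control, KO and interaction terms. The fit was tested on simulated data, where false calls ran above the nominal rate. Far fewer genes differed there than were called here, so the simulation does not give the rate of false calls in these data. Fold changes of low genes are understated by the pseudocount.

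The comparison, the 41 gene lists and the alternatives were chosen with earlier results of these data known. Named genes were the 12 largest rises and falls (called, no overlap, a mean of at least 5 RPKM on the higher side, no predicted or numbered-clone names), up to 4 members per list by p, further members of lists that moved nearly as a block, 7 sorting and target genes, and the 6 largest step differences each way. Cd69, S1pr1, Il7r, Notch1, Ddx3y, Mycn, E2f2, E2f7, Ptpn6, Csk, Wdr12, H2-T23, H2-T24, Dtx1, Notch3, Ptcra, Il17rb, Cd79b, Pecam1 and the mitotic and Gimap genes outside that rule were named after their values were seen. Some items that this rule names are not reported here. List members were matched by symbol. Upstream sequences are from RefSeq (GRCm38.p6), and 8246 of the 10896 genes had a window. Gene positions are from GENCODE (GRCm38). Alternatives were another pseudocount, filter or scaling, limma-voom on recovered reads, a fit of all 12 libraries, a replicate block, leaving out each library, and groups by library name.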

Additional observations from a re-analysis of the deposited data

Results flagged for a closer look

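In 292 sets of 4 libraries (each named gene in each population), 5 had a library far from the other 3 relative to the range of the 4; chance alone flags about 1 in 20 such sets. Xist was at 0.766 RPKM in ISP control 2, against 20.5 to 21.4 in the other ISP libraries, and at 0.914 RPKM in DP control 2, against 22.5 to 25.6 in the other DP libraries. Jund was at 120 RPKM in DP KO 2, against 111 to 113. Wdr12 was at 57.8 RPKM in DP KO 2, against 70.2 to 71.9. Il17rb was at 3.42 RPKM in DP KO 2, against 5.005 to 5.30.

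For 29 named genes the DP minus ISP difference itself differed between KO and control libraries at an adjusted p under 0.05 by limma's interaction term. The values given are the step in KO minus the step in control on the log2(RPKM + 1) scale. Higher steps in KO were found for Pdlim4 (2.24), Fam212a (1.35), Ccnd2 (1.33), Bcl2l14 (1.27), Tyrobp (1.22), Hist1h3e (1.17), Myc (0.74) and Gzma (0.74). Among replication and mitotic genes they were found for Cdc6 (0.68), Mcm5 (0.65), Mcm6 (0.58), Ccna2 (0.63), Aurkb (0.58), Birc5 (0.53), Top2a (0.48), Mki67 (0.45) and Cdk4 (0.43). Among metabolic and ribosomal genes they were found for Shmt1 (0.67), Mthfd1 (0.55), Atp5g1 (0.46) and Rps2 (0.43). Lower steps in KO were found for Il2ra (-1.35), Tnfrsf9 (-1.33), Arap2 (-1.26), Akr1c12 (-1.19), Lrig1 (-1.15), Ankrd23 (-0.96), Slc6a19 (-0.54) and Gimap6 (-0.35). Leaving out single libraries moved the number of such calls over all genes from 428 to between 2 and 1217.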

How the results depend on the processing

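The DP-ISP counts kept within 1.5 times under most alternatives, leave-one-out runs included (higher 3497 to 3828, lower 3452 to 3762, and by 2-fold or more 429 to 503 and 727 to 832). Rises of 2-fold or more numbered 728 with a pseudocount of 0.1, 218 with 5 and 769 with voom on recovered reads, and falls 383 with a pseudocount of 5, which follows from the scale on which the fold is taken. With only the 4 libraries whose labels agree on the population there were 2515 higher calls. The count for the difference of the step was 428, and 18 with no filter, 662 with voom, and 2 to 1217 when each library was left out; the cause was not tested. Same-numbered libraries had deviations with a correlation of 0.137 in control and 0.0635 in KO. The labels do not say what a number marks, so the numbers were not taken as pairs, although Xist and Ddx3y levels went with the number in the control libraries, a hint from the data. A replicate block gave 804 calls for the difference of the step and 3653 higher and 3595 lower calls in DP. Of 2774 checks of named genes under the 19 settings other than library name, 2727 kept direction and call, 33 lost the call, 14 gained it and 0 reversed.

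With groups taken from the library names, limma called 0 genes in each of the 9 counts (198, 100, 132 and 101 at an unadjusted p under 0.05 for both genotypes, control, KO and the difference of the step), and 55 of 146 named genes changed sign. Their log2 differences were then Cd4 -0.056, Il2ra 0.29, Bcl6 -0.16, Map4k5 -0.075, Ankrd6 -0.076, Fas -0.012, Spats2l -0.035, Ifitm1 0.034, Xcl1 0.29, Gzmc 0.63, Cd7 0.15, Cd163l1 0.012, Gzmb 0.43, Plac8 0.076, Klra5 0.057, Satb1 -0.0029, Trat1 -0.095, Grap2 -0.04, Sla -0.016, Tnfaip3 -0.025, Mcl1 -0.052, Sesn1 -0.043, Cdc6 0.057, Slc7a5 0.17, Fasn 0.094, Nkg7 0.041, Pdcd1 0.098, Ncr1 0.034, Il2rb 0.044, Ly6a 0.22, H2-K1 0.081, Ifitm2 0.19, Ifitm3 0.045, Ccr9 -0.016, Hes1 0.23, Lfng 0.098, Il12rb2 0.08, Foxo1 -0.075, Ctla4 0.29, Slamf1 -0.051, Zbtb20 -0.012, Mtf2 0.005, Cpa3 0.26, Arap2 -0.082, Lrig1 -0.091, Gimap1 -0.036, Gimap6 -0.015, Ptpn6 0.019, Csk 0.068, Mycn 0.027, Akr1c12 0.18, Fam212a 0.083, Hist1h3e 0.23, Il17rb 0.016 and Cd79b -0.0018. Depth limits only the lowest genes here: 1 read was worth 0.0709 to 0.105 RPKM for a transcript of 1 kilobase.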

Other observations

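Gene families looked at after the values were seen added 4 patterns. The Gimap genes, GTPases of immunity that lie in 1 cluster, went both ways: of 8 tested, 4 were called higher and 3 lower in DP. Gimap4 fell from 36.4, 51.4, 45.3 and 48.4 RPKM in the 4 ISP libraries to 2.41, 2.80, 2.91 and 2.91 RPKM in the 4 DP libraries (log2 difference -3.62, SE 0.099, adjusted p = 5.15e-09), and Gimap3 from 5.36 to 12.6 to 0.294 to 1.72 RPKM (log2 difference -2.22, SE 0.26, adjusted p = 2.30e-05). Gimap6 rose from 120.2, 114, 105 and 108 to 246, 258, 179 and 182 RPKM (log2 difference 0.93, SE 0.072, adjusted p = 1.36e-06), Gimap1 from 61.6 to 70.99 to 120.01 to 143 RPKM (log2 difference 1.00, SE 0.054, adjusted p = 1.34e-07) and Gimap9 from 117 to 119.8 to 170.2 to 202 RPKM (log2 difference 0.64, SE 0.054, adjusted p = 2.38e-06). Members of a cluster thus parted at a single step, with no overlap between populations in any of these 5.

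All 10 killer lectin-like receptor genes tested (names beginning Klr) were called lower, with a median log2 difference of -2.33. Those under 1 RPKM in all DP libraries could pass the filter only through ISP libraries, which favours a lower call. Of 49 proteasome genes (Psm), 43 were called lower and 1 higher, with a median of -0.52. Of 17 histone lysine demethylase genes (Kdm), 12 were called higher and 1 lower, with a median of 0.72. Over all genes tested 35% were called higher and 34% lower, and no test was made of these families as groups.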
